A study of Homo sapiens with 12 samples.

Results

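The data described here are the transcriptional response of parental U87 cells to JQ1, taken as the 2 libraries of parental cells given 1000 nM JQ1 for 24 h against the 2 libraries of parental cells given DMSO, the solvent, for 24 h. These are 4 of the 12 libraries of the series, chosen by their titles, and all 19093 genes with enough counts for a test were compared. U87 is an established human glioblastoma line that grows as a monolayer in serum. Further groups are used to set this response in context. These are parental cells given 1000 nM dBET6 for 24 h (2 libraries), and a derivative of U87 described as resistant to JQ1, given 1000 nM JQ1 (2 libraries) or DMSO (2 libraries) for 24 h. The 2 libraries of this derivative given 1000 nM dBET6 for 24 h are not compared here. All 12 libraries nevertheless entered the scaling, the filter on counts and the estimate of spread behind each test. PolyA RNA was sequenced in every group. The labels do not say how the resistant derivative was raised, whether it is a clone, or whether the 2 libraries of a group came from different cultures, and p-values thus measure only the spread between libraries.

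JQ1 is a small molecule that fills the acetyl-lysine pocket of the bromodomains of BET proteins, the family of BRD2, BRD3 and their relatives. BET proteins sit on acetylated histones at promoters and enhancers and help RNA polymerase II pass from a paused state into elongation, a step driven by the kinase complex P-TEFb. HEXIM1 and the 7SK RNA hold P-TEFb in an inactive form. Genes with large clusters of enhancers, among them inflammatory, growth-factor and lineage genes, are known to depend strongly on BET proteins in many cell types.

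The 4 libraries held 36602910 and 31346557 estimated counts with JQ1, against 36486809 and 34619742 with DMSO. Their 2 members per group correlated across genes at 0.991 (JQ1) and 0.992 (DMSO) on the log2 scale, although genes are not independent replicates. The 50 most abundant genes took 17.7% and 17.5% of the counts with JQ1, against 12.1% and 12.2% with DMSO. All 10 genes listed for mesenchymal U87 cells (among them VIM, CD44 and ANXA2) averaged at least 1 TPM (a level corrected for gene length and depth), and CDKN2A and CDKN2B, which lie in a region known to be deleted in U87, were at 0 TPM in all 4 libraries. Of the marker lists for other cell types, the neuron list summed to 2162 to 2203 TPM with JQ1 against 450.2 to 565.1 TPM with DMSO, almost wholly through the tubulin gene TUBB3. Of the other 7 members, SNAP25 stood at 4.15 and 3.75 TPM with JQ1 against 15.8 and 14.0 TPM with DMSO, GAD1 at 9.30 to 13.3 TPM and SYT1 at 1.69 to 2.98 TPM over the 4 libraries. The neuronal genes RBFOX3, GRIN1 and STMN2 reached at most 0.134, 0.0506 and 0.215 TPM in any of the 4 libraries. Oligodendrocyte lineage markers summed to 7.04 to 7.07 TPM with JQ1 against 19.2 to 21.1 TPM with DMSO. The myeloid list (319.5 to 330.3 TPM with JQ1, 311.8 to 357.3 TPM with DMSO) rested on CD68, with AIF1 at 0 TPM. The part that these marker lists play in the results was not tested.

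Levels below are CPM, counts scaled to library depth by the TMM method, which are not corrected for gene length, and a log2 fold change is JQ1 over DMSO in parental cells, followed by its standard error, unless another contrast is named. A gene is said to rise or fall where its adjusted p from edgeR's quasi-likelihood test was under 0.05. Genes named for the largest rises and falls were chosen for groups without overlap, so their separation follows from the choice. TMM sets most genes to no change on average, so each fold change is read against them. In RNA from bulk cultures, fewer cells of a kind and less RNA per cell cannot be told apart.

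JQ1 changed the levels of a large share of the measured genes. Of 19093 genes, 4362 (22.8%) were higher and 4979 (26.1%) were lower with JQ1, in all 48.9%. At least 2-fold changes were found in 1552 higher and 1834 lower genes, and at least 8-fold changes in 147 higher and 181 lower genes. The split between higher and lower depended on the scaling. The median gene stood at 0.006 under TMM, at -0.10 when libraries were scaled to total counts and at -0.28 when they were scaled to the 13 mitochondrially encoded mRNAs. Under these scalings 46.7%, 36.5% and 21.4% of the called genes were higher, and under the last 1556 genes were called higher and 5699 lower. Among the rises named below, those of MYC, CDK9, B2M, NFKBIA, DUSP1, CDC25B, MMP2, FBN1, EFEMP1, H3F3B, GCLM and TNFAIP2 kept their direction and were not called under mitochondrial scaling. On the deposited FPKM, tested with limma, AKR1B10, BCL2, BCL2L11, CCNT1, CDK6, CXCL2, EFEMP1, NECAB2, PTGS2, TFEB, TIMP3 and TNFAIP2 kept their direction and were not called under at least 1 pseudocount or filter, and AKR1B10 and EFEMP1 were not called by DESeq2.

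**Figure D1:**
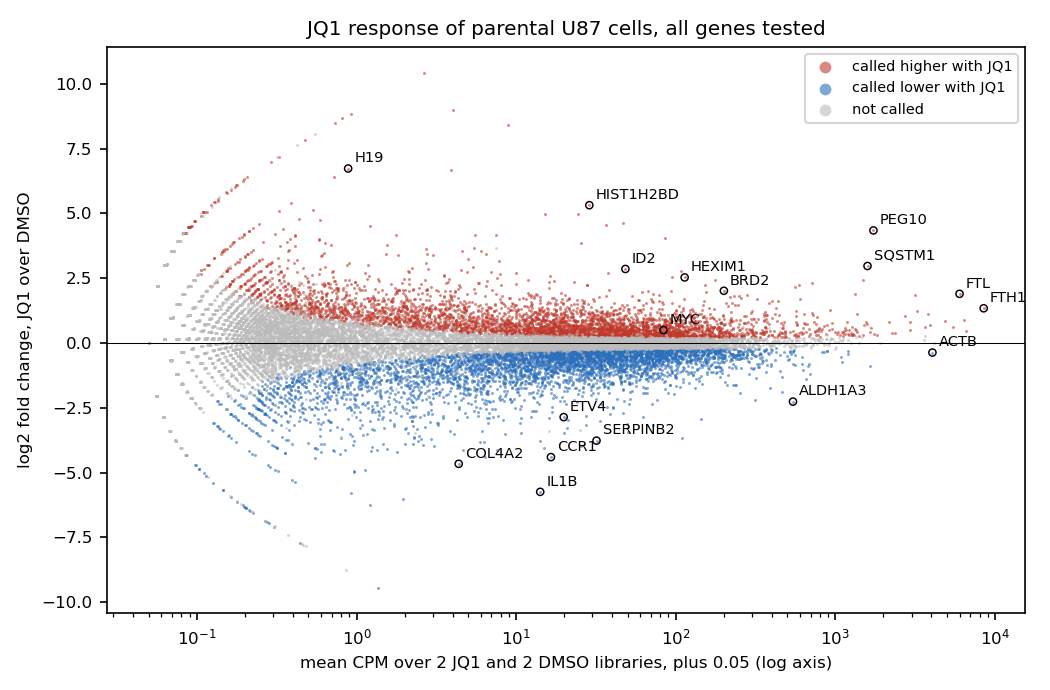
Log2 fold change (JQ1 over DMSO, parental U87) of each of the 19093 genes tested against its mean level in the 4 libraries (CPM, log axis). Called genes (adjusted p under 0.05) are coloured, 4362 higher and 4979 lower, and genes named in the text are labelled.

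The shares of risers and fallers are given by kind of gene. Among 14470 protein-coding genes 24.2% rose and 31.0% fell. Antisense RNA genes went the other way, with 20.2% of 1610 higher and 10.9% lower, and lincRNA genes likewise, with 17.3% of 1401 higher and 12.1% lower. Genes of a single exon other than histone genes rose in 29% and fell in 17.7% of 283 cases, against 24.1% and 31.3% of 14162 genes of several exons.

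The largest gains in CPM were those of the ferritin genes. FTH1, the ferritin heavy chain, stood at 11758 and 12587 CPM with JQ1 against 4554 and 5069 CPM with DMSO (log2 1.34 ± 0.09). FTL, the light chain, stood at 9472 and 9427 CPM with JQ1 against 2279.7 and 2796 CPM with DMSO (1.90 ± 0.10). Both groups were far apart for both chains of this iron store. FLNC, which encodes the actin crosslinker filamin C, gave 5082 and 4864 CPM with JQ1 against 1346 and 1405 CPM with DMSO (1.85 ± 0.09), and TUBB3, the beta-tubulin used as a neuronal marker, 2521 and 2480.4 CPM against 466 and 452 CPM with DMSO (2.45 ± 0.10). The largest losses in CPM included ACTB, cytoplasmic beta-actin, at 3607 and 3470.0 CPM with JQ1 against 4423 and 4714 CPM with DMSO (-0.37 ± 0.09). TUBA1B, an alpha-tubulin, and ALDH1A3, a retinaldehyde dehydrogenase, fell by 0.89 ± 0.09 and 2.26 ± 0.09 on the log2 scale. Among genes of the cytoskeleton, FLNC and TUBB3 thus rose while ACTB and TUBA1B fell.

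Genes of the machinery that JQ1 acts on changed in both directions. HEXIM1, the P-TEFb inhibitor, had 191 and 196 CPM in the JQ1 libraries against 29.5 and 37.6 CPM in the DMSO libraries, with no overlap (log2 2.53 ± 0.10, adjusted p = 2.96e-17). It has a single transcript of 1 exon in the table used, whose level was 49.7 and 52.0 TPM with JQ1 against 8.94 and 11.1 TPM with DMSO. BRD2, itself a BET gene, had 318 and 324 CPM with JQ1 against 76.0 and 82.7 CPM with DMSO, again without overlap (2.02 ± 0.09). BRD3 gave -0.005 ± 0.09 and was not called. Of the BRD2 transcripts, the protein-coding BRD2-205 took 35.6% and 36.6% of the gene's TPM with JQ1 against 26.9% and 28.6% with DMSO, and the retained-intron form BRD2-211 took 20.9% and 24.1% with JQ1 against 29.8% and 24.9% with DMSO. The transcripts share exons, so these shares are estimates.

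Across the list of P-TEFb, 7SK and elongation genes, 11 of 28 tested members rose and 5 fell, with a median of 0.09 that turned negative under scaling to total counts (-0.03) and to mitochondrial mRNA (-0.20). CDK9, the kinase of P-TEFb, rose by 0.67 ± 0.08, and CTR9 and AFF1, scaffolds of the PAF and super elongation complexes, rose by 0.93 ± 0.09 and 0.82 ± 0.09. CCNT1, the cyclin partner of CDK9, gave 0.27 ± 0.09, a call that ended without DMSO replicate 2 (0.20) or JQ1 replicate 2 (0.16), and stood at -0.008 under scaling to mitochondrial mRNA. Of 10 tested BET genes and partners 2 rose and 5 fell. The fallers included ZMYND8, a reader of acetylated chromatin (-1.47 ± 0.10), and JMJD6, an arginine demethylase and lysyl hydroxylase (-1.02 ± 0.09).

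SERPINI1 encodes neuroserpin, a secreted inhibitor of tissue plasminogen activator. It had 5.76 and 6.22 CPM with JQ1 against 0.877 and 1.08 CPM with DMSO (2.62 ± 0.20), groups that did not overlap at a low level. Its main transcript, SERPINI1-202, took 64.9% and 58.8% of the gene's TPM with JQ1 against 88.6% and 73.1% with DMSO.

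Histone genes were among the largest rises of protein-coding genes that averaged at least 10 CPM over the 4 libraries, an average that several of them reach only through their JQ1 libraries. Canonical histone genes are transcribed in S phase into mRNAs without a polyA tail, and some of them also give polyA forms in cells that leave the cycle, which is the form a polyA library can hold. HIST1H2BD had 50.8 and 61.1 CPM with JQ1 against 1.36 and 1.44 CPM with DMSO (log2 5.32 ± 0.14, adjusted p = 3.89e-21). HIST1H2AC had 88.1 and 90.7 CPM with JQ1 against 3.41 and 3.84 CPM with DMSO (4.62 ± 0.10). HIST2H2BE had 68.1 and 71.3 CPM with JQ1 against 3.04 and 2.81 CPM with DMSO (4.57 ± 0.11). In each of these H2A and H2B genes the groups were separated by more than an order of magnitude. Of 25 listed cluster genes with known polyA forms 17 had enough counts for a test, and 13 of these rose and 0 fell, with a median of 2.43. The filter on counts took in every group of the series, so a member can enter only through groups where it is high. The count and the median may rest in part on such members. HIST1H4C, an H4 gene, gave -0.55 ± 0.29 and was not called. HIST1H2BK, another H2B gene that was not called, had 0 CPM with JQ1 and DMSO and 7.23 and 3.99 CPM with dBET6. For JQ1 and DMSO the transcript pairing recovered none of its deposited FPKM, on which it was 2.17 higher with JQ1 (log2 of FPKM plus 1). Of all 33 tested genes of the histone clusters 21 rose and 1 fell. HIST2H3C (4.97 ± 0.52) and HIST2H2AA4 (4.06 ± 0.10), also among the 12 largest rises, have near-identical copies between which reads are divided, so their values are less certain than their errors say. HIST1H1C, a linker histone gene of the cluster, rose by 2.72 ± 0.13.

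Histone genes outside the clusters rose as well, though by less. H1F0, a linker histone of resting and differentiating cells, had 106 and 107 CPM with JQ1 against 23.8 and 29.7 CPM with DMSO (1.99 ± 0.10). H1FX, another linker histone, rose by 1.81 ± 0.10, and H3F3A and H3F3B, which encode H3.3, by 0.78 ± 0.11 and 0.75 ± 0.09. CENPA, the centromeric H3 needed in dividing cells, fell by 1.04 ± 0.11. In all 7 of 11 replication-independent histone genes rose and 3 fell.

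Promoters of the risen histone genes are shown because their core elements recur across the list. Sequences are from RefSeq (GRCh38.p14), read on the gene's strand, are the last 120 to 250 bases before the annotated start, and carry in capitals each CCAAT and TATAAA found on either strand. HIST1H2AC lies on chromosome 6 (chr6:26123992-26124171, plus strand) and HIST2H2BE on chromosome 1 (chr1:149886683-149886932, minus strand). Of 16 list members with a promoter in the table, 15 (93.8%) held CCAAT in the 250 bases before the start, against 33.0% of all 27305 promoters, and 9 (56.2%) held TATAAA, against 11.1%.
HIST1H2AC: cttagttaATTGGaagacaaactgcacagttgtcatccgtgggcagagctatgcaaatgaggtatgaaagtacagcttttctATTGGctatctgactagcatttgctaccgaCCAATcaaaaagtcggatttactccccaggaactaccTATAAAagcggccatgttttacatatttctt
HIST2H2BE: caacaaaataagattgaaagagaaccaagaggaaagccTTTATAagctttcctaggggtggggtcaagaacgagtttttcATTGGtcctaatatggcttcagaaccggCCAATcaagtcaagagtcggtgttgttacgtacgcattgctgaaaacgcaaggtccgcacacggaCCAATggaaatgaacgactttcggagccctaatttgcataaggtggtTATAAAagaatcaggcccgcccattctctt
Nearly the whole list holds CCAAT, so the motif counts describe the family and not the response.

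PEG10 had the largest rise outside the histone clusters among protein-coding genes that averaged at least 10 CPM. This paternally expressed gene derives from a retrotransposon and encodes a Gag-like protein. It had 3109.8 and 3489.6 CPM with JQ1 against 168 and 157 CPM with DMSO (log2 4.34 ± 0.10, adjusted p = 2.65e-22), and both JQ1 libraries exceeded both DMSO libraries many times over. SGCE, its head-to-head neighbour on chromosome 7 and also paternally expressed, moved the other way, with 11.1 and 11.4 CPM with JQ1 against 26.1 and 22.1 CPM with DMSO (-1.10 ± 0.11). Another imprinted gene that rose was PLAGL1, a zinc finger factor (1.43 ± 0.10). In the list of 15 imprinted genes 7 rose and 2 fell.

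IGF2 and H19, an imprinted pair on chromosome 11, were close to silent in DMSO. IGF2, a growth factor, had 97 counts over both JQ1 libraries against 1 count over both DMSO libraries, a ratio of 110.4 (95% interval 19.4 to 4406, counting error only). H19, a long non-coding RNA, had 122 counts against 1 count with DMSO, a ratio of 138.9 (24.5 to 5531). Both remained at low levels, at 1.15 and 1.5 CPM and 1.52 and 1.80 CPM in the JQ1 libraries.

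Inhibitors of differentiation rose together. ID proteins are helix-loop-helix factors without a DNA-binding domain and are known targets of BMP signalling. ID2 had 81.2 and 88.5 CPM with JQ1 against 11.3 and 12.2 CPM with DMSO, without overlap (2.85 ± 0.10, adjusted p = 3.13e-18). ID4, ID1 and ID3 rose by 2.06 ± 0.33, 1.68 ± 0.11 and 1.26 ± 0.09. All 4 ID genes were higher. Within the list of TGF-beta, BMP and ID genes 10 of 31 rose (32.3%) and 12 fell (38.7%), against 22.8% and 26.1% of all genes. Fallers there included BMPR1B, a BMP receptor (-2.27 ± 0.27), FST, which encodes the activin trap follistatin (-2.09 ± 0.16), and SMAD7, an inhibitory SMAD (-1.05 ± 0.15).

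Genes of hypoxia and glycolysis rose in most cases, 23 of 38 tested members with 4 lower and a median of 0.52 (0.22 under mitochondrial scaling). ADM, the vasodilator peptide adrenomedullin, led them with 195 and 182 CPM with JQ1 against 25.6 and 29.2 CPM with DMSO (2.78 ± 0.10). Glycolytic enzymes followed, with ALDOA at 1.25 ± 0.10, GAPDH at 0.90 ± 0.10 and PKM at 0.85 ± 0.10. BNIP3, a mitophagy receptor, rose by 1.29 ± 0.12. The direction was not shared by all targets of the hypoxia-inducible factors. PFKP, a phosphofructokinase, and VEGFA, the angiogenic factor, fell by 0.96 ± 0.09 and 1.18 ± 0.10 on the log2 scale, and HIF1A itself gave 0.12 ± 0.09 and was not called.

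Targets of NRF2, the factor that answers oxidative stress, formed another large group of risers. Of 33 tested members 26 rose and 4 fell, with a median of 0.77. SQSTM1, which encodes the autophagy receptor p62, had 2894 and 2744 CPM with JQ1 against 359 and 360.4 CPM with DMSO (2.97 ± 0.10), from transcripts that held 0.41 of the gene's deposited FPKM, on which it was 2.31. TXNRD1, thioredoxin reductase, had 854 and 979.6 CPM with JQ1 against 215 and 196 CPM with DMSO (2.16 ± 0.10). NQO1, a quinone reductase, had 415 and 465 CPM with JQ1 against 123 and 122 CPM with DMSO (1.85 ± 0.09). Each of these genes was separated between the groups. HMOX1, heme oxygenase, and GCLC, the catalytic subunit of glutathione synthesis, rose by 1.54 ± 0.10 and 1.39 ± 0.08. AKR1B10, an aldo-keto reductase, was among the fallers (-1.17 ± 0.32), and NFE2L2, which encodes NRF2, and KEAP1, its inhibitor, gave 0.15 ± 0.08 and -0.14 ± 0.08 without a call.

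In the list of metallothioneins, which bind zinc and copper, and genes of zinc handling, 4 of 10 rose and 1 fell, the zinc exporter gene SLC30A1, with a median of 0.41. MT1X had 1139.9 and 1241 CPM with JQ1 against 207 and 276 CPM with DMSO (2.30 ± 0.12), and MT2A rose by 1.12 ± 0.17. MTF1, the factor that drives them, gave 0.19 ± 0.09 and was not called. Sterol and fatty acid synthesis genes were higher in 20 of 35 cases and lower in 8, with a median of 0.42. INSIG1, a sterol-regulated brake on this pathway, rose by 1.61 ± 0.09 and SCD, a fatty acid desaturase, by 1.03 ± 0.09, whereas EBP, a sterol isomerase, fell by 0.97 ± 0.09.

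Among the other genes with the largest rises were LFNG, a glycosyltransferase that modifies Notch (29.3 and 26.7 CPM with JQ1, 4.43 and 4.92 CPM with DMSO, 2.58 ± 0.15), and SAT1, which acetylates polyamines (157 and 165 CPM with JQ1, 28.6 and 26.5 CPM with DMSO, 2.55 ± 0.09). Both rose about as much as HEXIM1. TGFB1, the ligand, rose by 1.34 ± 0.10, and JUND, an AP-1 subunit, by 1.80 ± 0.12.

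Inflammatory cytokine and chemokine genes fell. In the list of NF-kB dependent cytokines 15 of 22 tested members were lower and 2 higher, with a median of -1.38. IL1B, interleukin 1 beta, had 0.449 and 0.590 CPM with JQ1 against 28.4 and 27.0 CPM with DMSO (-5.74 ± 0.16, adjusted p = 1.51e-20). CSF3, the granulocyte colony-stimulating factor, had 15.7 and 12.9 CPM with JQ1 against 114 and 144 CPM with DMSO (-3.17 ± 0.11). IL8, a neutrophil chemokine, had 3.79 and 3.24 CPM with JQ1 against 20.6 and 22.7 CPM with DMSO (-2.61 ± 0.14). All 3 were lower in both JQ1 libraries than in either DMSO library. LIF and CCL2 fell by 3.02 ± 0.12 and 2.59 ± 0.30 on the log2 scale, and CXCL2, another neutrophil chemokine, by 1.52 ± 0.27. CSF2, the granulocyte-macrophage factor, had 0 counts over both JQ1 libraries against 37 counts over both DMSO libraries, at least 10.8-fold lower by the floor of 3 counts set over the JQ1 group. CSF1, the macrophage factor, was one of the 2 that rose (0.93 ± 0.09), with TSLP (0.87 ± 0.13).

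Promoters of IL8 and CXCL2 are shown because both hold a match to the NF-kB motif GGANTTTCC, read on either strand, close to the start. Both lie in the chemokine cluster of chromosome 4, IL8 at chr4:73740449-73740568 (plus strand) and CXCL2 at chr4:74099196-74099315 (minus strand), and capitals mark the match, whose first base lies 91 and 77 bases before the start.
IL8: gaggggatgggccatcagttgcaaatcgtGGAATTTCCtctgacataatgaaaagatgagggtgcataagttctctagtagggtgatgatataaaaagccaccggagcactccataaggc
CXCL2: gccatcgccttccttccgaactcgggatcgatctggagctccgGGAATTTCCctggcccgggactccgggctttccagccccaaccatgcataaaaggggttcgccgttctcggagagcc
The motif was present in 6 of 18 promoters of the cytokine list (33.3%), against 1.47% of all promoters. The list was drawn up from NF-kB dependent genes, so this share describes the list and not the response. A match is a description of letters and not of binding.

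Receptors for cytokines were lower too, 13 of 25 with 4 higher. CCR1, a chemokine receptor, had 1.47 and 1.5 CPM with JQ1 against 31.1 and 31.8 CPM with DMSO (-4.40 ± 0.16). IL7R, the interleukin 7 receptor, had 0.299 and 0.177 CPM with JQ1 against 3.92 and 3.42 CPM with DMSO (-3.90 ± 0.33). For both receptors the JQ1 libraries lay far below the DMSO libraries. IL13RA2, a decoy receptor known as a glioblastoma surface antigen, fell by 1.17 ± 0.11, and CSF1R, the macrophage factor receptor, by 2.81 ± 0.15. LIFR, the LIF receptor, rose by 0.92 ± 0.10 while its ligand fell. The NF-kB subunits themselves moved less. RELA gave -0.11 ± 0.09 without a call, NFKB1 fell by 0.71 ± 0.09, and the feedback gene TNFAIP3 by 1.62 ± 0.12, while NFKBIA, another feedback gene, rose by 0.50 ± 0.09.

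Interferon-stimulated genes were lower in 24 of 43 cases and higher in 9, with a median of -0.48. TRIM22, an antiviral ubiquitin ligase, had 2.84 and 3.19 CPM with JQ1 against 22.6 and 20.4 CPM with DMSO (-2.84 ± 0.14). GBP1, a guanylate-binding protein, and OAS1 and OAS2, oligoadenylate synthetases, fell by 2.77 ± 0.28, 2.27 ± 0.27 and 2.52 ± 0.27. IFI44L fell by 3.41 ± 0.18, from transcripts that held 0.43 of the gene's deposited FPKM. Transcription factors of the pathway moved the other way in part. IRF7 had 21.8 and 18.1 CPM with JQ1 against 3.81 and 3.62 CPM with DMSO (2.42 ± 0.12), both libraries above both controls, and STAT2 rose by 0.98 ± 0.09. In antigen presentation 8 of 18 genes fell and 3 rose. ERAP2, a peptide trimmer, and PSMB8, an immunoproteasome subunit, fell by 1.24 ± 0.09 and 1.14 ± 0.11, whereas B2M, the invariant light chain of class I molecules, rose by 0.43 ± 0.09.

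The plasminogen system, by which cells dissolve fibrin and matrix, lost several of its central genes. Of 21 tested genes of plasminogen activation and coagulation 13 fell and 4 rose, with a median of -0.80. PLAU, the urokinase activator of plasminogen, had 17.6 and 14.3 CPM with JQ1 against 199 and 208 CPM with DMSO (-3.67 ± 0.11). SERPINB2, an inhibitor of urokinase, had 4.17 and 4.57 CPM with JQ1 against 60.2 and 58.3 CPM with DMSO (-3.76 ± 0.11). THBD, thrombomodulin, had 1.90 and 1.92 CPM with JQ1 against 24.1 and 28.0 CPM with DMSO (-3.77 ± 0.14). Activator, inhibitor and anticoagulant receptor were thus all lower in both JQ1 libraries. PLAUR, the urokinase receptor, and F3, tissue factor, fell by 1.31 ± 0.09 and 1.55 ± 0.23. Risers were SERPINE2, a protease inhibitor (1.13 ± 0.08), S100A10, a plasminogen-binding subunit (1.18 ± 0.09), and SERPINI1 (given above).

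Promoters of SERPINB2 and PLAUR are shown because each holds the AP-1 motif TGANTCA, which reads the same on both strands and is in capitals. SERPINB2 lies at chr18:63887585-63887704 (plus strand) and PLAUR at chr19:43670170-43670419 (minus strand). The first base of the first match lies 102 and 186 bases before the start.
SERPINB2: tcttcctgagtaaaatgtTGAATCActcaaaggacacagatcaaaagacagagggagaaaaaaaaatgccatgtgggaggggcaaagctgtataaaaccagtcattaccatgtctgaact
PLAUR: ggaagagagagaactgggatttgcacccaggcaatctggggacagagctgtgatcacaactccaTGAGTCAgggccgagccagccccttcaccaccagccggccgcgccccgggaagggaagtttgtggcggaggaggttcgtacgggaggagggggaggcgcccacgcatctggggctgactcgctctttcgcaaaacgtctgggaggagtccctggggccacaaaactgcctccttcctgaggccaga
The motif was found in 7 of 15 promoters of this list (46.7%), against 6.6% of all promoters, and in 0 of 23 promoters of the AP-1 and early response genes. This list and motif were set side by side after their values had been seen.

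Matrix genes fell broadly. Of 40 collagens and matrix glycoproteins 29 were lower and 2 higher, with a median of -0.70. COL4A2, a basement membrane collagen chain, had 0.274 and 0.383 CPM with JQ1 against 8.12 and 8.49 CPM with DMSO (-4.66 ± 0.25). LTBP1 and LTBP2, latent TGF-beta binding proteins, had 8.56 and 8.67 and 5.71 and 5.22 CPM with JQ1 against 99.6 and 84.2 and 47.6 and 50.3 CPM with DMSO (-3.42 ± 0.10 and -3.16 ± 0.11). TNC, which encodes the glioma matrix protein tenascin C, and COL1A1 fell by 1.61 ± 0.10 and 1.21 ± 0.14. FN1, fibronectin, fell by 0.42 ± 0.10, a small change in an abundant gene. EFEMP1 and FBN1, fibulin 3 and fibrillin 1, were the 2 that rose (0.85 ± 0.27 and 0.69 ± 0.09), although the call of EFEMP1 ended without DMSO replicate 2 (0.74). Among matrix proteases and inhibitors 6 of 24 rose and 12 fell, including MMP1 (-1.78 ± 0.13) and ADAM19 (-2.17 ± 0.15), while MMP2 rose by 0.52 ± 0.09. Integrins and adhesion genes were split, 8 higher and 8 lower of 23.

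Feedback genes of the ERK pathway, whose levels follow the activity of that kinase cascade in many cells, were lower in 19 of 25 cases and higher in 1, with a median of -0.69. ETV4, an ETS factor, had 5.07 and 4.51 CPM with JQ1 against 33.4 and 36.2 CPM with DMSO (-2.86 ± 0.12). SPRY4, a sprouty inhibitor, had 6.79 and 5.90 CPM with JQ1 against 26.5 and 28.6 CPM with DMSO (-2.11 ± 0.11). DUSP6, an ERK phosphatase, had 20.7 and 17.7 CPM with JQ1 against 56.1 and 59.6 CPM with DMSO (-1.59 ± 0.09). For all 3 the JQ1 libraries lay below the DMSO libraries. DUSP1, a phosphatase of wider range, was the 1 that rose (0.55 ± 0.09). Members of the AP-1 and early response list went both ways, 12 of 32 higher (37.5%) and 10 lower (31.25%), against 22.8% and 26.1% of all genes. JUND, ATF3 (1.55 ± 0.11) and FOS (1.31 ± 0.15) rose, and FOSL1 (-1.19 ± 0.10), BATF3 (-1.96 ± 0.14) and EGR2 (-0.99 ± 0.16) fell, while JUN gave -0.03 ± 0.08 and was not called.

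Secreted growth factors followed the downward direction, 23 of 38 lower and 3 higher. HGF, the ligand of MET, had 3.89 and 3.78 CPM with JQ1 against 29.1 and 27.6 CPM with DMSO (-2.88 ± 0.11). FGF1, a fibroblast growth factor, had 0.225 and 0.413 CPM with JQ1 against 5.47 and 4.16 CPM with DMSO (-3.93 ± 0.32). WNT5A and EREG, an epidermal growth factor receptor ligand, fell by 2.34 ± 0.10 and 2.23 ± 0.10. The 3 that rose were IGF2, ADM and TGFB1. Most receptor tyrosine kinases in the list were not called, with 3 higher (11.1%) and 7 lower (25.9%) of 27, against 22.8% and 26.1% of all genes. EGFR gave -0.10 ± 0.09 and MET -0.17 ± 0.09, neither called, while PDGFRB, a platelet-derived growth factor receptor, and EPHA2, an ephrin receptor, fell by 1.33 ± 0.13 and 1.69 ± 0.12. YAP and TEAD targets were divided, 11 of 30 higher (36.7%) and 9 lower (30.0%). CTGF and CYR61 rose (1.57 ± 0.10 and 0.83 ± 0.09), and YAP1 and TEAD4 fell (-0.54 ± 0.08 and -0.89 ± 0.10).

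Other genes among the largest falls were ARHGAP31, a GTPase activator for CDC42 and RAC1 (3.34 and 3.16 CPM with JQ1, 37.0 and 36 CPM with DMSO, -3.48 ± 0.13), and DRGX, a homeobox gene (1.62 and 1.89 CPM with JQ1, 20.3 and 18.7 CPM with DMSO, -3.48 ± 0.16). PAPL, an acid phosphatase gene, and KIAA1644 fell by 3.28 ± 0.12 and 3.12 ± 0.09. In the list of glioma and neural factors 13 of 32 fell (40.6%) and 7 rose (21.9%), against 26.1% and 22.8% of all genes. PRRX1, a mesenchymal homeobox factor, had 12 and 12.1 CPM with JQ1 against 70.2 and 68.3 CPM with DMSO (-2.52 ± 0.09), and NES, which encodes the stem cell filament nestin, fell by 1.20 ± 0.10. ZEB1, a driver of the mesenchymal state, fell by 1.04 ± 0.10.

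**Figure D2:**
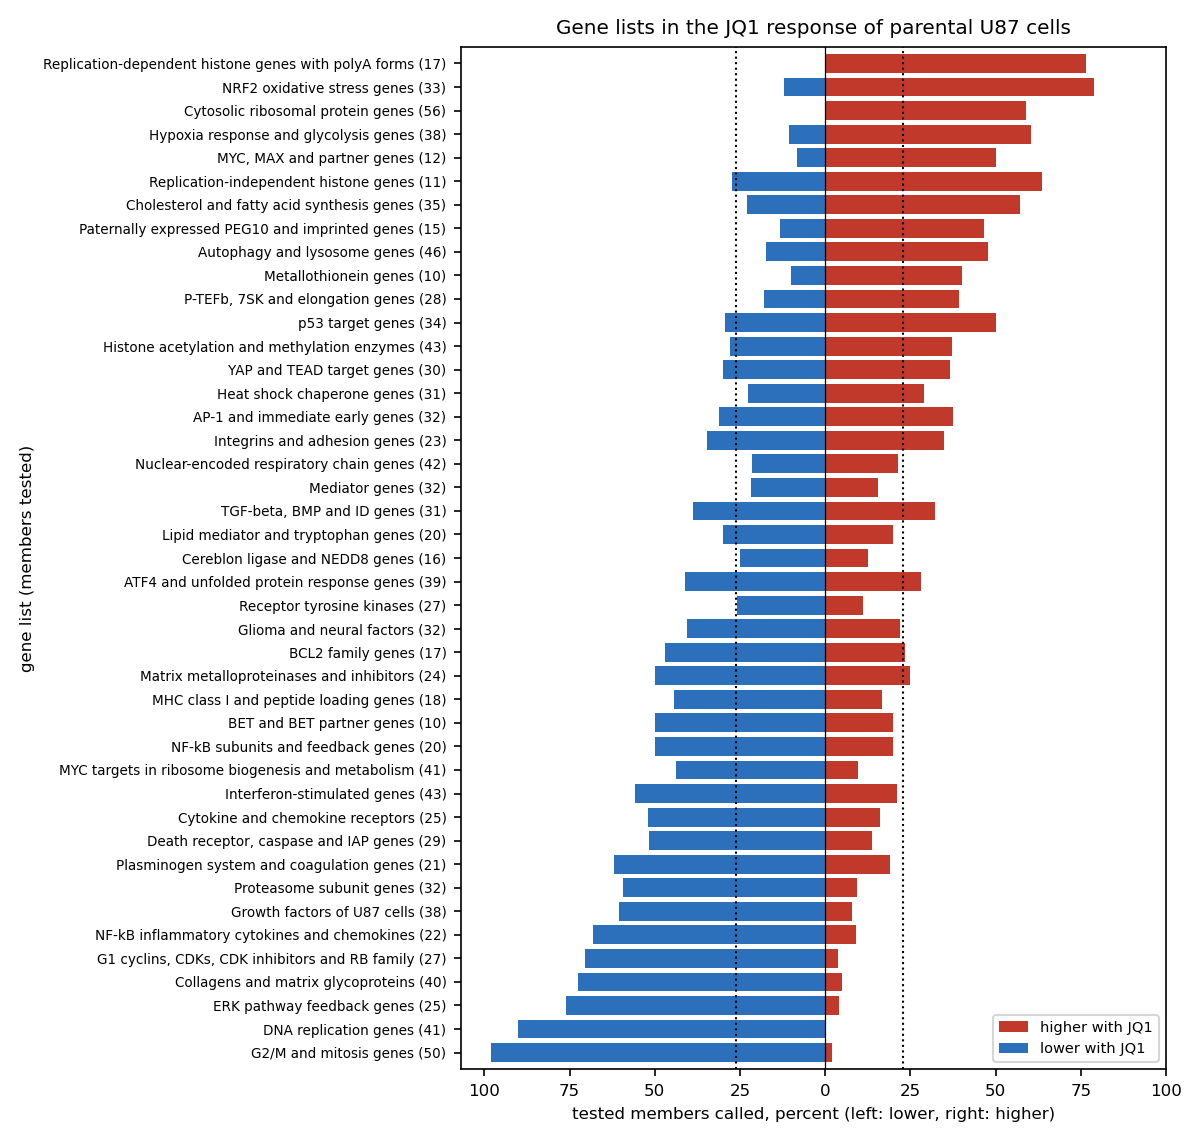
Share of tested members of each gene list that rose (right of 0) or fell (left of 0) with JQ1 in parental cells, in percent, with the number tested beside the name. Dotted lines mark the 22.8% of all tested genes that rose and the 26.1% that fell. The G2/M and replication lists lie furthest to the left, and the NRF2 and histone lists furthest to the right.

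Cell cycle genes fell in nearly every case. Among the 50 genes of G2/M and mitosis, 49 fell and 1 rose, with a median of -1.04. AURKA, a spindle pole kinase, had 38.3 and 38.5 CPM with JQ1 against 137 and 128 CPM with DMSO (-1.78 ± 0.09). PRC1, which bundles the midzone microtubules, had 26.6 and 26.4 CPM with JQ1 against 113 and 90.4 CPM with DMSO (-1.94 ± 0.22). PLK1 and BUB1B, a mitotic kinase and a checkpoint protein, fell by 1.56 ± 0.10 and 1.51 ± 0.09. The 1 that rose was CDC25B, a phosphatase that activates cyclin-dependent kinases (0.42 ± 0.09). The changes were moderate in size, with a lowest value of -1.94 in the list.

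DNA replication genes fell in 37 of 41 cases with 0 higher, at a median of -0.74. CDC45, part of the replicative helicase, had 15.8 and 14.0 CPM with JQ1 against 52.2 and 47.1 CPM with DMSO (-1.74 ± 0.11). MCM5 and MCM6, ring subunits of the same helicase, fell by 1.70 ± 0.10 and 0.73 ± 0.09. PCNA, the sliding clamp, fell by 0.58 ± 0.08, and TK1, thymidine kinase, gave -0.03 ± 0.10 without a call.

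Upstream of both lists, G1 regulators were lower in 19 of 27 cases and higher in 1. E2F2, an activator of replication genes, had 7.01 and 6.37 CPM with JQ1 against 33.3 and 35.7 CPM with DMSO (-2.36 ± 0.14). E2F1 fell by 0.94 ± 0.09, CDK2 by 1.26 ± 0.08 and CDK6 by 0.63 ± 0.11. The 1 riser was CDKN1A, which encodes the inhibitor p21, with 265 and 272 CPM with JQ1 against 123 and 134 CPM with DMSO (1.06 ± 0.09, adjusted p = 1.67e-10). CCND1, cyclin D1, had 635 and 648 CPM with JQ1 against 661 and 687 CPM with DMSO (-0.07 ± 0.08, adjusted p = 0.502) and was not called. Within CCND1, the retained-intron form CCND1-204 took 11.4% and 9.32% of the gene's TPM with JQ1 against 20.5% and 17.5% with DMSO.

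Promoters of MCM6, BUB1B and PLK1 are shown for elements known to couple such genes to the cell cycle, the E2F motif TTTGGCGC and the cell cycle genes homology region TTTGAA. Capitals mark these letters on either strand. MCM6 lies at chr2:135876444-135876623 (minus strand), BUB1B at chr15:40160949-40161068 (plus strand) and PLK1 at chr16:23678769-23678888 (plus strand), and in BUB1B and PLK1 the match begins 23 and 29 bases before the start.
MCM6: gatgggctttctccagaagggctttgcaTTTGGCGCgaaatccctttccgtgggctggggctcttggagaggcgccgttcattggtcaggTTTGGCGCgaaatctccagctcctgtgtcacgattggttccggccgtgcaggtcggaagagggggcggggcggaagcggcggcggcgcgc
BUB1B: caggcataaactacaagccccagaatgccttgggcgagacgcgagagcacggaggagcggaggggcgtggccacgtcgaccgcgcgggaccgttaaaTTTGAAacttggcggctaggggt
PLK1: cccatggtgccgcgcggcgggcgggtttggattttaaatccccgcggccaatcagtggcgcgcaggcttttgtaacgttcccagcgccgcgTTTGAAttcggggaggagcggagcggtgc
TTTGAA occurred in 19 of 43 promoters of the G2/M list (44.2%), against 13.6% of all promoters, and CCAAT in 31 of 43 (72.1%), against 33.0%. TTTGGCGC occurred in 3 of 36 promoters of the replication list (8.33%), against 0.553% of all promoters. Such elements are known in these genes, so the counts describe the lists and not the response. In the 1248 promoters of genes at least 2-fold lower, TTTGAA occurred in 14.5% and CCAAT in 33.9%. For tested protein-coding genes these shares were 9.04% and 35.0%.

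MYC, whose repression is a known effect of JQ1 in blood cancers, rose slightly in these cells. It had 99.5 and 96.4 CPM with JQ1 against 68.7 and 70.0 CPM with DMSO, without overlap (0.50 ± 0.09, adjusted p = 1.88e-05), and its value was 0.20 without a call under mitochondrial scaling. In the list of MYC, MAX and partner genes 6 of 12 rose and 1 fell. MXD4, which competes with MYC for MAX, had 117 and 111 CPM with JQ1 against 27.4 and 33.9 CPM with DMSO (1.90 ± 0.10), and MXI1 and MXD1, of the same kind, rose by 1.10 ± 0.11 and 1.05 ± 0.12, while MAX gave 0.05 ± 0.08 and was not called. Of 41 MYC targets in ribosome biogenesis and metabolism 18 fell and 4 rose, with a median of -0.18. NME1, a nucleotide kinase, fell by 0.84 ± 0.09 and DKC1, a pseudouridine synthase, by 0.52 ± 0.09, while ODC1, ornithine decarboxylase, rose by 1.04 ± 0.09. Cytosolic ribosomal protein genes were higher in 33 of 56 cases and lower in 0, at a median of 0.27 that became -0.03 under mitochondrial scaling.

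Genes that carry out the p53 response were divided. Of 34 tested targets 17 rose and 10 fell, with a median of 0.29 (-0.003 under mitochondrial scaling). TP53INP1, a p53-induced nuclear protein, rose by 1.73 ± 0.11, and SESN1, a sestrin, by 0.92 ± 0.13. FAS, the death receptor, and DDB2, a DNA damage sensor, fell by 1.52 ± 0.16 and 0.89 ± 0.10. MDM2, the p53 ubiquitin ligase, gave 0.50 ± 0.40 and was not called, but was called at 1.23 without DMSO replicate 1.

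Regulators of cell death changed on both sides of the balance. BCL2L1, which encodes the survival protein BCL-xL, had 37.0 and 39.4 CPM with JQ1 against 105 and 108 CPM with DMSO, without overlap (-1.48 ± 0.10). Its transcript BCL2L1-201 took 31.5% and 40.5% of the gene's TPM with JQ1 against 54.8% and 51.5% with DMSO. BCL2L11, which encodes the death activator BIM, had 14.1 and 13.5 CPM with JQ1 against 4.64 and 3.55 CPM with DMSO (1.75 ± 0.13), which was 0.69 on the log2 scale of the deposited FPKM plus 1. BCL2, another survival gene, fell by 1.06 ± 0.22 and MCL1 gave -0.04 ± 0.09 without a call. On the other side BAX and BAK1, which form pores in mitochondria, fell by 0.53 ± 0.09 and 0.71 ± 0.12. In the BCL2 family 4 of 17 rose (23.5%) and 8 fell (47.1%), against 22.8% and 26.1% of all genes. Death receptor, caspase and IAP genes were mostly lower, 15 of 29 with 4 higher. CASP1, the caspase that matures interleukin 1 beta, and CASP4 fell by 2.76 ± 0.37 and 1.26 ± 0.13, and CASP9, the initiator of the mitochondrial route, rose by 1.02 ± 0.12.

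Stress and protein quality lists gave smaller or mixed changes. ATF4 and unfolded protein response genes rose in 11 (28.2%) and fell in 16 (41.0%) of 39 cases. DDIT4, an inhibitor of mTORC1, stood at 1.96 ± 0.17 and TRIB3, a pseudokinase, at -2.01 ± 0.20. XBP1, a factor of the same response, fell by 1.48 ± 0.11. Heat shock chaperone genes rose in 9 and fell in 7 of 31 cases, with HSP90AA1 at 1.04 ± 0.11. Autophagy and lysosome genes were higher in 22 and lower in 8 of 46 cases, with a median of 0.26 that became -0.04 under mitochondrial scaling. MAP1LC3B, an autophagosome marker, rose by 1.03 ± 0.09, and TFEB, a regulator of lysosome genes, fell by 1.29 ± 0.25. Proteasome subunits fell in 19 and rose in 3 of 32 cases, at a median of -0.28.

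In some lists neither share exceeded that of all genes (22.8% higher, 26.1% lower). Nuclear-encoded respiratory chain genes rose in 9 and fell in 9 of 42 cases, Mediator genes in 5 and 7 of 32, and cereblon ligase and NEDD8 genes in 2 and 4 of 16. Enzymes of histone acetylation and methylation lay above both shares, with 16 of 43 higher (37.2%) and 12 lower (27.9%). Among them DOT1L, the H3K79 methyltransferase, stood at -1.46 ± 0.14 and SIRT1, a deacetylase, at 1.04 ± 0.11. In the list of lipid mediator and tryptophan genes 4 of 20 rose (20.0%) and 6 fell (30.0%), the share of fallers being above that of all genes. AHR, the aryl hydrocarbon receptor, rose by 1.09 ± 0.08, and TDO2 and PTGS2, which make kynurenine and prostaglandin precursors, fell by 1.17 ± 0.12 and 0.85 ± 0.14.

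Among non-coding RNAs the largest rise was in the histone gene region of chromosome 1. RP11-196G18.3 had 1294 counts over both JQ1 libraries against 4 counts over both DMSO libraries, a ratio of 368.3 (95% interval 143.5 to 1354, counting error only). It lies among HIST2 genes, and the strand of counting is not stated, so its reads cannot be told apart from those of an overlapping gene. AC016831.7, a lincRNA, had 30.1 and 28.1 CPM with JQ1 against 0.969 and 0.881 CPM with DMSO (4.97 ± 0.14). KCNJ2-AS1 had 2.69 and 2.71 CPM with JQ1 against 0.300 and 0.196 CPM with DMSO (3.42 ± 0.36), with the same limit for its antisense partner. On the falling side, AC003092.2 had 9 counts over both JQ1 libraries against 188 over both DMSO libraries, a ratio of 0.0545 (0.0245 to 0.106). RP11-30P6.6 had 10 counts against 206 with DMSO, a ratio of 0.0553 (0.0261 to 0.104). These RNAs were chosen for groups that do not overlap, so their separation follows from the choice.

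The JQ1 response of the resistant line, measured on 4 other libraries, allowed the parental response to be read beside a second one. Of the genes that rose in parental cells, 2898 also rose in resistant cells, which is 66.4% of the parental and 72.8% of the resistant calls, where 20.8% of all tested genes rose in resistant cells. Of those that fell, 3483 also fell in resistant cells, or 70.0% of the parental and 78.9% of the resistant calls, where 23.1% of all tested genes fell in resistant cells. Opposite calls were rare, 43 genes higher in parental and lower in resistant cells and 55 the reverse. The 1552 genes at least 2-fold higher in parental cells had a median log2 fold change of 1.49 there and 0.97 in resistant cells, a gap that their choice by the parental value favours. The 1834 genes at least 2-fold lower had medians of -1.54 and -1.24.

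A direct test of the difference between the responses (parental minus resistant) called 1241 genes (6.5%), 549 with a higher and 692 with a lower parental value. These counts were 277 and 58 under mitochondrial scaling. They ranged over 235 to 557 and 310 to 710 when 1 library was left out, and fell by over 1.5 times without parental DMSO replicate 1 (309 and 430), resistant DMSO replicate 1 (276 and 369) or 2 (235 and 313), and resistant JQ1 replicate 1 (288 and 426) or 2 (300.0 and 310.0). Without parental JQ1 replicate 1 they were 337 and 468. HEXIM1 was among them, with 207 and 201 CPM in resistant JQ1 libraries against 47.0 and 51.0 CPM in resistant DMSO libraries, a log2 fold change of 2.06 there and a difference of 0.47 ± 0.13. BRD2 (2.02 in parental and 2.03 in resistant cells) and CDKN1A (1.06 and 1.40) were not called in this test. Of 25 feedback genes of the ERK pathway 14 were called, 13 of them with a lower parental value, and of 32 AP-1 and early response genes 18 were called, 15 of them with a lower parental value. ETV4 gave -2.86 in parental and -1.77 in resistant cells (difference -1.09 ± 0.17), DUSP6 -1.59 and -0.93 (-0.66 ± 0.12), and FOSL1 -1.19 and 0.01 (-1.21 ± 0.13). CCND1, which was not called in parental cells, gave -0.07 there and 1.01 in resistant cells (-1.08 ± 0.12). The median of all differences moved to 0.28 under mitochondrial scaling, and 2 of 25 ERK feedback genes were then called lower and 0 higher, and 1 of 32 AP-1 and early response genes each way.

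Plasminogen genes behaved alike, with 10 of 21 called in the difference, all with a lower parental value, and 1 under mitochondrial scaling. PLAU gave -3.67 in parental and -2.72 in resistant cells (difference -0.95 ± 0.14), and SERPINB2 -3.76 and -2.21 (-1.55 ± 0.15). MMP1 went opposite ways in the lines. It had 4.79 and 4.34 CPM with JQ1 against 17.2 and 14.3 CPM with DMSO in parental cells (-1.78 ± 0.13), and 10.9 and 10.7 CPM with JQ1 against 4.56 and 4.30 CPM with DMSO in resistant cells (1.28), a difference of -3.06 ± 0.18. TIMP3, which encodes an inhibitor of such proteases, likewise gave -0.60 and 1.10 (-1.70 ± 0.36).

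NRF2 targets leaned the other way, with 14 of 33 called in the difference, 12 of them with a higher parental value (6 higher and 0 lower under mitochondrial scaling). GCLM, the modifier subunit of glutathione synthesis, rose in parental cells (0.76) and fell in resistant cells (-0.62), a difference of 1.38 ± 0.16. NQO1 gave 1.85 and 0.79 (1.06 ± 0.12). Of 50 G2/M genes 2 were called in the difference. IGF2 and H19 were called in parental cells and not in resistant cells, where they gave 0.43 and 0.28, and the difference passed the test for both (5.97 ± 1.15 and 6.45 ± 1.08). These fitted differences rest on near-empty parental DMSO libraries and are no measure of size. The genes with the largest differences included NECAB2, a neuronal calcium-binding protein, at 1.38 in parental and -1.87 in resistant cells (3.25 ± 0.29), and TNFAIP2 at 0.71 and -2.05 (2.76 ± 0.26). In resistant cells both were low, NECAB2 at 0.242 and 0.342 CPM with JQ1 against 1.08 and 1.08 CPM with DMSO. TNFAIP2 had 0.323 and 0.499 CPM there against 1.92 and 1.48 CPM. NECAB2 reaches a mean of 10 CPM only through dBET6 libraries.

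**Figure D3:**
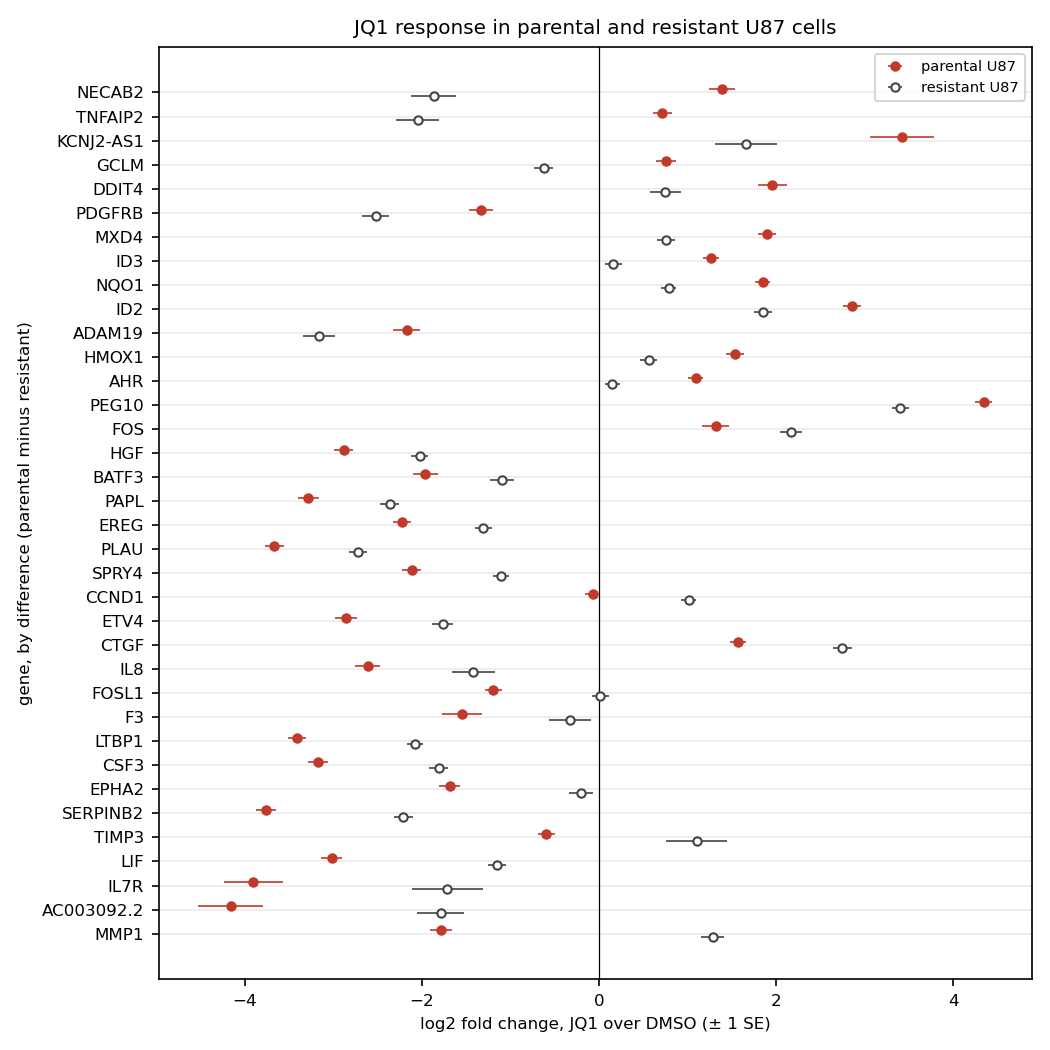
JQ1 response (log2 fold change, JQ1 over DMSO) of the 36 genes with the largest differences among those named in the text and called in the test of the difference (IGF2 and H19 left out), in parental cells (filled circles) and in resistant cells (open circles), with bars of 1 standard error. Genes are ordered by the difference, parental minus resistant. NECAB2, TNFAIP2, GCLM, MMP1 and TIMP3 were called in opposite directions in the lines, and FOSL1 and CCND1 had a value near 0 in one of them. NECAB2, TNFAIP2 and TIMP3 were at low levels in resistant cells.

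dBET6 is a degrader that tethers BET proteins to the cereblon ubiquitin ligase and was given to parental cells at the same dose and time. Both compounds were read against the same DMSO libraries, so their responses are given side by side and the difference is taken from the direct contrast of the JQ1 and dBET6 libraries, in which 14239 genes (74.6%) were called. The 2 dBET6 libraries differed in make-up, with 3.46% and 3.02% of counts from mitochondrially encoded mRNA (1.94% and 1.48% with JQ1) and 25.1% and 24.4% from the 50 most abundant genes (17.7% and 17.5% with JQ1). The median of the direct contrast was -0.003 under TMM, 0.51 under total counts and 1.45 under mitochondrial scaling. The called differences named here kept their sign under all 3, but those of HIST2H2BE and HIST1H1C all but vanished under mitochondrial scaling. HEXIM1 had 191 and 196 CPM with JQ1 and 30.3 and 33.1 CPM with dBET6, a log2 difference of 2.61 ± 0.10. Against DMSO its value was 2.53 with JQ1 and -0.08 with dBET6. ID2 had 81.2 and 88.5 CPM with JQ1 and 13.7 and 14.3 CPM with dBET6 (2.60 ± 0.10), and LFNG 29.3 and 26.7 CPM and 3.71 and 1.97 CPM (3.29 ± 0.17). These 3 genes were all higher with JQ1 than with dBET6.

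Other genes were lower with JQ1 than with dBET6. CDKN1A had 265 and 272 CPM with JQ1 and 7829 and 6963 CPM with dBET6 (-4.78 ± 0.10). SERPINB2, one of the strongest fallers with JQ1, had 4.17 and 4.57 CPM with JQ1 and 60.8 and 65.5 CPM with dBET6 (-3.85 ± 0.11), near its DMSO level of 60.2 and 58.3 CPM. LTBP1 had 8.56 and 8.67 CPM with JQ1 and 66.6 and 68.3 CPM with dBET6 (-2.97 ± 0.10). Of 17 histone genes with polyA forms 14 were called in the direct contrast, in which 74.6% of all tested genes were called. HIST2H2BE had 68.1 and 71.3 CPM with JQ1 and 195 and 193 CPM with dBET6 (-1.47 ± 0.08, and -0.001 under mitochondrial scaling). HIST1H1C gave a log2 difference of -1.46 ± 0.12, and -0.003 under mitochondrial scaling, so neither difference held under that scaling. HIST1H2AC differed by 0.21 ± 0.08. HIST1H2BD had 50.8 and 61.1 CPM with JQ1 and 62.5 and 63.7 CPM with dBET6, a difference of -0.17 ± 0.10 that was not called and was 0.34 under total counts. By list, the JQ1 and dBET6 medians against DMSO were 2.43 and 4.18 for histone genes with polyA forms, -1.04 and -2.27 for G2/M genes, -1.38 and -0.39 for NF-kB cytokines, and -0.70 and 0.15 for matrix genes.

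**Figure D4:**
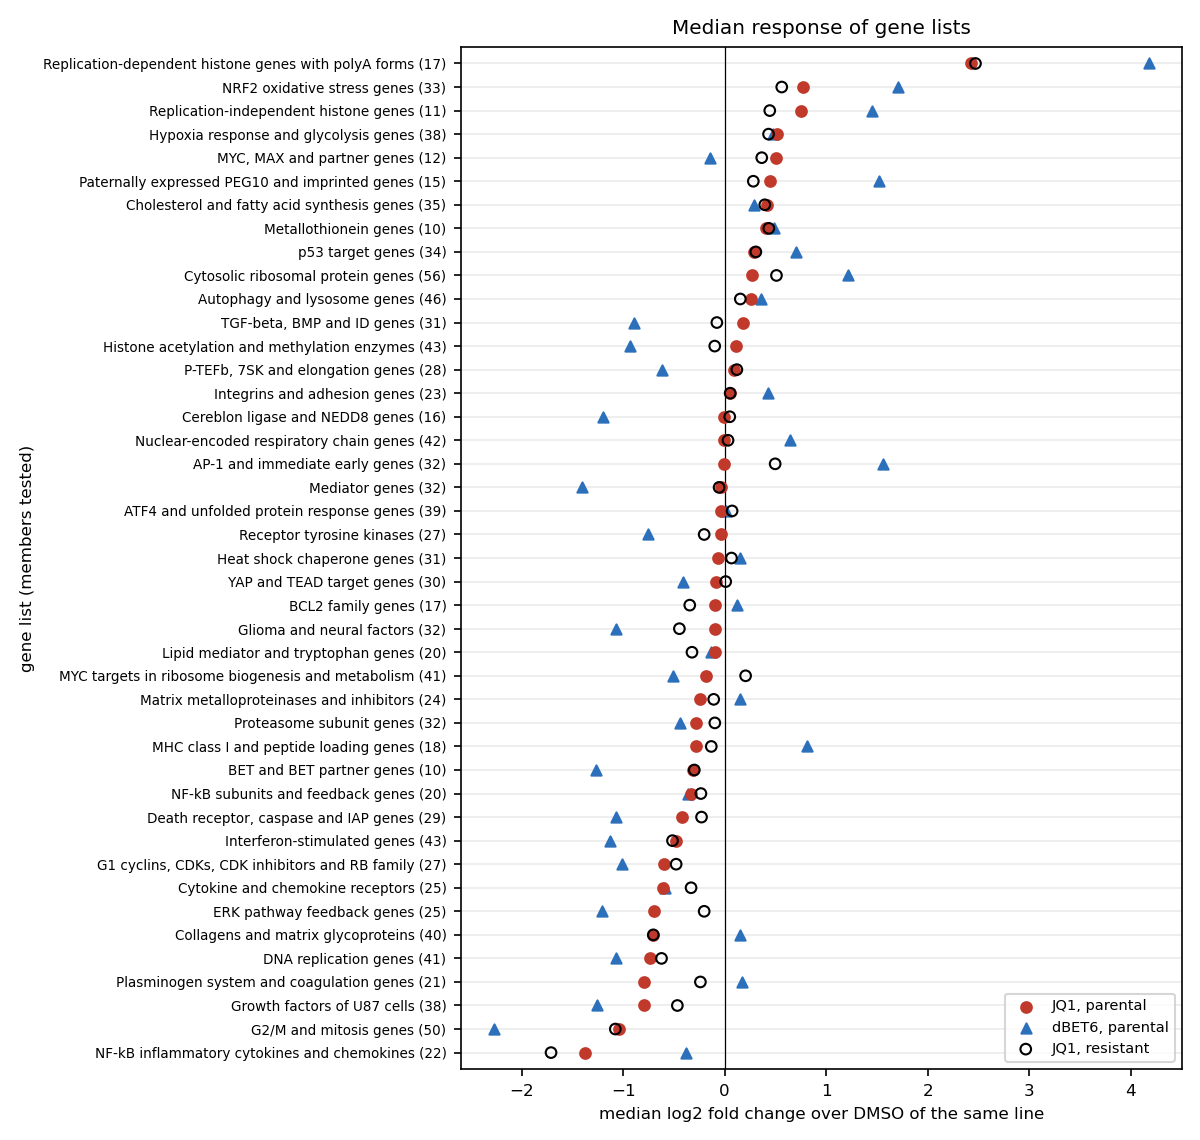
Median log2 fold change against DMSO of each gene list for JQ1 in parental cells, JQ1 in resistant cells and dBET6 in parental cells, the JQ1 and dBET6 values of parental cells sharing their DMSO libraries. Lists run from the highest parental JQ1 median (histone genes, 2.43) to the lowest (NF-kB cytokines, -1.38).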

How the data were processed

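PolyA RNA-seq of U87 cells was quantified with kallisto on build hg19, per the submitters' processing notes, with no version given in the sources used here. The authors deposited estimated counts and TPM per transcript for each library, and FPKM per gene for the series. The deposited estimated counts were summed per gene through GENCODE release 29 transcript to gene pairs (92.12% of 196354 transcripts, 52271 genes) and rounded. Of 10511 genes above 1 FPKM, 81.99% were rebuilt to within 1% of the deposited FPKM and 5.85% to below 0.8 of it. Genes named in the text with a rebuilt share below 0.8 are BCL2L1, CASP1, EFEMP1, HIST1H2BK, IFI44L, LTBP1, MDM2, PLAGL1, PRC1, SQSTM1 and TNC. DESeq2 is also named in the processing notes.

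All 12 libraries entered 1 edgeR 4.0.16 quasi-likelihood fit (R 4.3.3, TMM scaling, filterByExpr, 1 mean per group, 6 residual degrees of freedom, biological coefficient of variation 7.88%), with Benjamini-Hochberg adjustment over 19093 genes at 0.05. The contrasts were parental JQ1 against DMSO, the parental minus the resistant JQ1 response, and parental JQ1 against dBET6. Groups came from the sample titles. Alternatives were DESeq2 1.42.0, other scalings and filters, a replicate block, each library left out, and limma 3.58.1 on the deposited FPKM with pseudocounts of 1 and 0.1. On simulated data (18580 genes, 200 of them changed) the parental JQ1 against DMSO test recovered 60.2%, 90.9% and 100% of 1.5-fold, 2-fold and 4-fold changes. Of its calls 10.5% were false, more than the 0.05 threshold aims at. In the data 48.9% of genes were called, a breadth of response that this simulation does not cover. Intervals and the limit of 3 counts cover counting error only.

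Named genes were the 12 largest rises and 12 largest falls among protein-coding genes averaging 10 CPM or more with groups that do not overlap, 4 non-coding genes each way at 1 CPM or more, 13 chosen genes, up to 2 higher and 2 lower genes per list by smallest p, and 4 each way at 10 CPM for the other contrasts. Part of the genes it selects are not printed, and list members printed outside it were chosen after their values were seen. The members and lists were chosen with earlier results of these data known. RefSeq promoters (250 bases before the start) matched 12777 of 19093 tested genes. Other motifs were searched without sequences being printed. The antioxidant response element core TGACNNNGC occurred in 4 of 24 NRF2 target promoters (16.7%), against 11.0% of all promoters. The E-box CACGTG occurred in 8 of 36 MYC target promoters (22.2%) and 9 of 37 autophagy and lysosome promoters (24.3%), against 6.49%.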

Additional observations from a re-analysis of the deposited data

Results flagged for a closer look

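The response to JQ1 differed between parental and resistant cells, by edgeR's test of the difference itself with an adjusted p under 0.05, in 76 of the 201 genes with values in the text, 36 with a higher and 40 with a lower parental value. Each value in brackets is the log2 difference, parental minus resistant. Over all 19093 genes tested 6.5% were called in this test, and the genes of the text include some chosen for this contrast, so the count does not describe the response as a whole. Under mitochondrial scaling the calls over all genes went from 549 higher and 692 lower to 277 and 58, and the median of all differences moved to 0.28. Lower values listed here are then smaller in size and higher values larger. Whether each gene below kept its call under the alternatives was not followed. No explanation was tested for any of these genes.

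Among genes that fell in parental cells, the parental value was the lower one for cytokine and receptor genes LIF (-1.86), CSF3 (-1.36), IL8 (-1.19) and IL7R (-2.19), the NF-kB feedback gene TNFAIP3 (-0.75) and the prostaglandin synthase gene PTGS2 (-0.71). Plasminogen and coagulation genes gave SERPINB2 (-1.55), F3 (-1.22), PLAU (-0.95), THBD (-0.78) and PLAUR (-0.58). Of the ERK feedback genes and growth factor genes, EPHA2 (-1.49), FOSL1 (-1.21), ETV4 (-1.09), SPRY4 (-1.01), DUSP6 (-0.66), EREG (-0.92) and HGF (-0.86) did so, as did the AP-1 gene BATF3 (-0.86). Matrix genes with a lower parental value were MMP1 (-3.06), TIMP3 (-1.70, at low levels in resistant cells) and LTBP1 (-1.34). CDC45 (-0.67) and CDK2 (-0.52) belong to the cell cycle, DKC1 (-0.62) and NME1 (-0.53) to the MYC targets, and XBP1 (-0.66), BCL2L1 (-0.62) and ZMYND8 (-0.79) to stress, survival and chromatin lists. The others were TEAD4 (-0.72), EBP (-0.47), TUBA1B (-0.53), PAPL (-0.92) and AC003092.2 (-2.37).

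Genes that rose in parental cells, yet had the lower value there, were MYC (-0.58), ODC1 (-0.72), CTGF (-1.18), CYR61 (-0.60) and FOS (-0.85). CCND1 (-1.08) was not called in parental cells.

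A higher parental value was found for the elongation inhibitor HEXIM1 (0.47), the histone gene HIST1H2AC (0.60) and the imprinted genes PEG10 (0.94), IGF2 (5.97) and H19 (6.45), the last 2 from near-empty DMSO libraries. NRF2 targets gave TXNRD1 (0.75), NQO1 (1.06), HMOX1 (0.98), GCLC (0.49) and GCLM (1.38). ID genes gave ID1 (0.56), ID2 (1.00) and ID3 (1.10). Stress, hypoxia and p53 genes gave ADM (0.48), BNIP3 (0.81), DDIT4 (1.21), ATF3 (0.62), TP53INP1 (0.51) and SESN1 (0.66), and death regulators BCL2L11 (0.83) and CASP9 (0.57). Interferon and cytokine pathway genes gave IRF7 (0.75), STAT2 (0.51), LIFR (0.68) and TNFAIP2 (2.76). The others were MXD4 (1.14), AHR (0.94), INSIG1 (0.75), LFNG (0.81), FBN1 (0.82), MMP2 (0.66), KCNJ2-AS1 (1.77) and NECAB2 (3.25). TNFAIP2 and NECAB2 were at low levels in resistant cells. PDGFRB (1.19), ADAM19 (0.99) and TDO2 (0.83) fell in parental cells, by less than in resistant cells.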

How the results depend on the processing

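The JQ1 against DMSO fold changes of the 201 genes with values in the text and the counts of 3 comparisons were computed under 21 alternatives. For these fold changes, 163 genes kept their direction and their side of the threshold in each alternative run. Calls in the response difference and in JQ1 against dBET6 were not followed gene by gene. Over genes and alternatives, 37 values lost their call, 13 gained one and 25 changed sign. Of the counts per gene list, 182 moved by more than 1.5 times and 1108 did not. The counts that moved by more than 1.5 times follow, and except where fewer genes or libraries entered, the cause was not tested. Under mitochondrial scaling, 1556 genes were called higher for JQ1 against DMSO, 277 higher and 58 lower for the parental minus resistant response, and 12713 higher and 1910 lower for JQ1 against dBET6. On deposited FPKM with limma (pseudocount 1, pseudocount 0.1, no filter), 2782, 2741 and 2344 genes were higher with JQ1, 3278 lower without the filter, and the response difference had 114, 90 and 114 higher and 187, 146 and 160 lower. With a mean of at least 10 CPM, fewer genes were tested and 2907 were lower for JQ1 against DMSO, and 4133 higher and 3578 lower for JQ1 against dBET6. With only the libraries compared, 831 genes had a higher parental response. Leaving out each library gave 3571 to 3758 higher and 4233 to 4488 lower genes for JQ1 against DMSO, 235 to 557 and 310 to 710 for the response difference, and 7032 to 7235 and 6298 to 6512 for JQ1 against dBET6. The response difference moved past 1.5 times in both directions without parental DMSO replicate 1 (309 higher, 430 lower) or without any of the 4 resistant libraries, and among higher genes without parental JQ1 replicate 1 (337). Where an arm then held 1 library, it was assumed to vary like the other groups. Same-numbered libraries did not deviate together (0 of 15 pairs of groups had a correlation above 0.1). Noise of single libraries can hide a shared culture or batch in this check, so whether the numbers pair libraries is not known. A replicate block gave 4277 higher and 4912 lower genes. The log2 fold change of 10 genes changed sign, of which CCNT1 (0.27) was called in the first place. HIST1H2BK, with no paired counts under JQ1 or DMSO, gave 2.174, 2.206 and 2.174 on FPKM and -0.039 with the replicate block. With a library left out, BRD3 ranged between -0.088 and 0.068, JUN between -0.116 and 0.047, MCL1 between -0.114 and 0.014 and TK1 between -0.084 and 0.006. At 10 CPM they gave 0.041, 0.015, 0.002 and 0.014, and BRD3 gave 0.023 with only the libraries compared. MTF1 gave -0.104 under mitochondrial scaling and -0.079, -0.095 and -0.079 on FPKM. Under mitochondrial scaling CCNT1 gave -0.008, HIF1A -0.164, MAX -0.248 and NFE2L2 -0.144, and under total counts HIF1A gave -0.00016 and MAX -0.065. CCND1 was called lower under total counts (-0.19). The 2 libraries per group limit every estimate of spread.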
